A study of Mus musculus with 6 samples.

Results

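The insulin, growth hormone (GH) and insulin-like growth factor (IGF) axis was described here through 10 genes of mouse liver: the receptors Ghr and Insr, the GH feedback inhibitor Socs2, the hormone Igf1, its carrier subunit Igfals, the binding proteins Igfbp1, Igfbp2 and Igfbp4, and the receptor substrates Irs1 and Irs2. They were found by matching the Ensembl identifiers of the deposited tables to these symbols in GENCODE M21 on GRCm38, which gave 10 of 55536 genes. The study asked how liver transcripts of male C57BL/6 mice, an inbred strain, differ after oral polystyrene microplastics (PS-MP). One group received 0.4 mg/day PS-MPs, with 2 dosings a week for 8 weeks, and the other received water on the same schedule. All mice were male and 6 weeks old at the start, and each group has 3 RNA sequencing libraries of liver, called replicates 1, 2 and 3 as in the labels. No particle size, feeding state or hour of collection was read from the labels, and the labels do not state that each library is its own animal, so the p-values speak to the spread between libraries, which may be technical.

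GH from the pituitary binds GHR on hepatocytes, activates the kinase JAK2 and through it the transcription factor STAT5B, which turns on Igf1, Igfals and the feedback inhibitors Socs2 and Cish. The liver is the main source of circulating IGF1, which travels bound to a binding protein and, for most of it, to the acid-labile subunit made from Igfals. Insulin binds INSR, which phosphorylates IRS1 and IRS2. These dock PI3-kinase and lead through AKT to the exclusion of the factor FOXO1 from the nucleus, so that FOXO1 targets such as Igfbp1 and Irs2 are high in fasting and low after a meal.

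The libraries held 13082210 to 15938284 reads in PS-MP and 14520402 to 16948343 reads in water, recovered from the deposited FPKM (reads per kilobase of exon, scaled to the reads counted in the library). The hepatocyte genes Alb, Ttr, Apoa1, Serpina1c, Cps1, Hnf4a and Fgb were present in every library, with a summed level of 34031 to 41160 FPKM in PS-MP and 40905 to 43881 FPKM in water. The islet hormone genes Ins1 and Ins2 were at 0 in all 6 libraries. All 6 islet markers listed, with these included, summed to 0.975 FPKM (11 reads) in PS-MP replicate 3 and to 0 in every other library. Of the 8 forebrain neuron markers listed, the summed level was 5.42, 2.85 and 34.3 FPKM in PS-MP replicates 1, 2 and 3 and 1.48 to 1.70 FPKM in water; Gad1 was at 0 in every water library. Of the 6 adipocyte markers, Cidec was at 19.2 to 20.9 FPKM in PS-MP and 16.2 to 25.8 FPKM in water. The other 5 (Adipoq, Plin1, Cfd, Ucp1 and Cidea) summed to 0, 0.0135 and 11.1 FPKM in PS-MP replicates 1, 2 and 3, against 28.0, 0.448 and 8.28 FPKM in water replicates 1, 2 and 3, so that PS-MP replicate 3 and water replicates 1 and 3 held nearly all of these transcripts. In whole tissue, fewer cells of a type and less RNA per cell cannot be told apart.

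None of the 10 genes passed the test between PS-MP and water. The test was limma-trend on log2(FPKM + 0.5), fitted over 13299 genes with Benjamini-Hochberg adjustment, and a gene was called changed at an adjusted p under 0.05; all 10 members were tested. It called 0 of 10 members, where 0.489% of all genes tested were called, 0.241% as higher in PS-MP and 0.248% as lower. At an unadjusted p under 0.05 it counted 1 member, Igfbp1, against 13.1% of all genes tested. Limma-voom on the recovered reads also called 0 members, with unadjusted p under 0.05 for Igfbp1 and Irs1, and 1.0% of all genes called. The PS-MP and water values did not overlap in 2 of 10 members, Igfbp1 and Irs1, both lower in PS-MP in every library, where 19.2% of all genes tested did not overlap, 8.12% lower and 11.1% higher in PS-MP. Members had a median log2 fold change of -0.02, where all genes tested had 0.01. Intervals of fold changes below are 95% intervals of the limma fit for each gene by itself, on the scale of FPKM + 0.5, where a gene near that pseudocount shows a smaller change than its FPKM does.

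**Figure D1:**
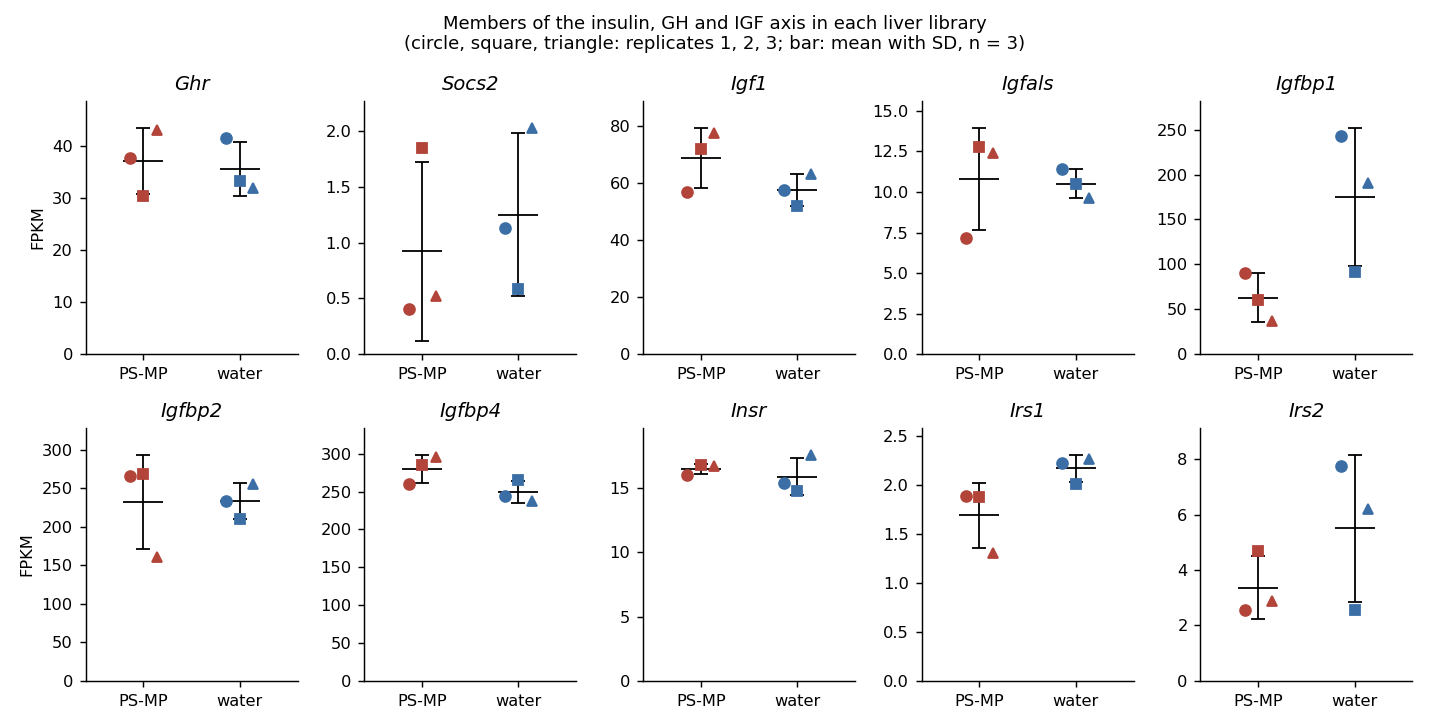
Level of each member in FPKM (vertical axis from 0) in the PS-MP libraries (left, red) and the water libraries (right, blue), with replicates 1, 2 and 3 as circle, square and triangle and the mean with SD (n = 3) in black. Igfbp1 and Irs1 are the panels in which all PS-MP points lie under all water points, while Socs2, Irs2 and Igfbp1 spread most within a group.

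The stretch before the start of transcription is shown for the 3 members with the most negative fitted changes that have a RefSeq promoter window, Igfbp1, Irs2 and Irs1, and for Igfals, whose window holds the letters of a STAT5 site. RefSeq on GRCm38.p6 gave windows of 300 bases (250 before the annotated start and 50 from it on) for 8 of the 10 members, 12 windows in all; Insr and Socs2 were not matched. Capitals mark exact matches, on either strand, to the STAT5 motif TTCNNNGAA, the FOXO motif TGTTTAC, the insulin response core TGTTTTG, the E-box CACGTG of the clock factors and the D-box TTATGNAA of DBP and TEF. The windows are chr11:7197537-7197836 (plus strand) for Igfbp1, chr8:11008880-11009179 (minus strand) for Irs2, chr1:82291390-82291689 (minus strand) for Irs1 and chr17:24877981-24878280 (plus strand) for Igfals, each written 5′ to 3′ along its gene.
Igfbp1: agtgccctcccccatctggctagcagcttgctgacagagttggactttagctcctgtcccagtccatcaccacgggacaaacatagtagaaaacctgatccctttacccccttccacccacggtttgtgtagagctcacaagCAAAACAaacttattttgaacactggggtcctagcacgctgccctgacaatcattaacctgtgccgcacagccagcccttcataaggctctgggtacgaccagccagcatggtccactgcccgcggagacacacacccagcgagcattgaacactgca
Irs2: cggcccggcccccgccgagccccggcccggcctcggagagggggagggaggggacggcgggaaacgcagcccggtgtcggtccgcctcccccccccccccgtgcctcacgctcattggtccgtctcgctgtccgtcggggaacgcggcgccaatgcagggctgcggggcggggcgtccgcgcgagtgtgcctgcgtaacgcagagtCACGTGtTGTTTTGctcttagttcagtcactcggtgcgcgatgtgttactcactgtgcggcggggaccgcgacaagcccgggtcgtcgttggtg
Irs1: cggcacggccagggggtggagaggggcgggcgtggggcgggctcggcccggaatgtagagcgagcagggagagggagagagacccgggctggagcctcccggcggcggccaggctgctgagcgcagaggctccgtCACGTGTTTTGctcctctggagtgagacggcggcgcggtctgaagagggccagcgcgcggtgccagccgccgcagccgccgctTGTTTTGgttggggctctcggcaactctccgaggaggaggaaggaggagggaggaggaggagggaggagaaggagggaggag
Igfals: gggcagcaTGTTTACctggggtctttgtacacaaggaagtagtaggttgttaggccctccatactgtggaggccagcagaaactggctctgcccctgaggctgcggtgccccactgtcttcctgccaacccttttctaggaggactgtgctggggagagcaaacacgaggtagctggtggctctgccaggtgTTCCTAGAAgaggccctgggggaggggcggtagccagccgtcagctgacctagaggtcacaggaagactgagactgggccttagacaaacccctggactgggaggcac

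Counted from the RefSeq start, the Igfbp1 window held the insulin response core on the other strand, beginning at position -108. The core was also found in Irs2, at -37, next to an E-box at -44, and in Irs1 at -111 and -32, the first of these sharing bases with an E-box at -115. The Igfals window held a FOXO match at -242 and a STAT5 match at -58, and another of its 3 windows held a STAT5 match at -236. Igfbp2 had an E-box at -142, and the windows of Igf1, Igfbp4 and Ghr had no match to any of the 5 motifs. Over all 32851 RefSeq windows of this length, 6.28% held the insulin response core, 7.15% the E-box, 8.3% the STAT5 motif, 3.65% the FOXO motif and 3.38% the D-box, which no member window held. These are matches of letters and say nothing of binding.

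The GH receptor and its feedback gene Socs2 had overlapping values in PS-MP and water. Ghr, which encodes the GH receptor (ENSMUSG00000055737, chromosome 15, 3317760 to 3583492, minus strand), had 37.7, 30.4 and 43.1 FPKM in PS-MP replicates 1, 2 and 3, against 41.6, 33.2 and 32.0 FPKM in water replicates 1, 2 and 3. The groups overlapped over most of their range. Its fold change was 1.04 with an interval of 0.824 to 1.30 (adjusted p = 0.906, limma), and with 1 library left out its log2 fold change lay between -0.06 (without PS-MP replicate 3) and 0.19 (without PS-MP replicate 2). Socs2, the STAT5-induced inhibitor that limits GH signalling (ENSMUSG00000020027, chromosome 10, 95385362 to 95417180, minus strand), had 0.401, 1.85 and 0.520 FPKM in PS-MP, against 1.13, 0.582 and 2.03 FPKM in water. Each group held both low and high libraries, and the groups overlapped over nearly their whole range. The highest PS-MP library was 4.61 times the lowest, and the highest water library 3.49 times the lowest. Counting error is small beside this, since the lowest library held 50 reads (a counting SD of 14.1%). The fitted fold change of Socs2 was 0.786, with an interval of 0.407 to 1.52 (log2 fold change -0.35, adjusted p = 0.767, limma). Single libraries set its size: the log2 fold change was -0.78 without PS-MP replicate 2 and -0.65 without water replicate 2, but -0.09, -0.18 and -0.04 without PS-MP replicate 1, PS-MP replicate 3 or water replicate 3.

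Igf1, the hormone itself (ENSMUSG00000020053, chromosome 10, 87858265 to 87937042, plus strand), was the most abundant member apart from the binding proteins. It had 57.0, 71.9 and 77.4 FPKM in PS-MP replicates 1, 2 and 3, against 57.7, 51.9 and 63.1 FPKM in water. PS-MP replicates 2 and 3 were above every water library, and PS-MP replicate 1 lay between water replicates 1 and 2. The means were 68.8 ± 10.5 FPKM in PS-MP and 57.6 ± 5.61 FPKM in water (SD, n = 3 each), a fold change of 1.19 with an interval of 0.975 to 1.45 (log2 fold change 0.25, adjusted p = 0.445, limma). Without PS-MP replicate 1 the log2 fold change was 0.38 (adjusted p = 0.223), and without PS-MP replicate 3 it was 0.16 (adjusted p = 0.684). Igf1os, an antisense RNA within the Igf1 locus, shares no exonic base with it and had 19 to 38 reads.

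Igfals encodes the acid-labile subunit, which holds IGF1 and its binding protein in the circulation (ENSMUSG00000046070, chromosome 17, 24865997 to 24882010, plus strand). It had 7.17, 12.8 and 12.4 FPKM in PS-MP, against 11.4, 10.5 and 9.63 FPKM in water. The PS-MP values lay on both sides of the water range: replicate 1 was the lowest of the 6 libraries, and replicates 2 and 3 were the highest. The fitted fold change was 0.997 (interval 0.722 to 1.38, adjusted p = 0.995, limma). PS-MP replicate 1 decides this value: without it the log2 fold change was 0.25 with an adjusted p of 0.376. Igf1 and Igfals, both targets of STAT5, were thus each lowest within PS-MP in replicate 1, and Socs2 was lowest there as well. Within water the 3 genes did not follow each other. Igfals was lowest in water replicate 3 (9.63 FPKM), where Igf1 (63.1 FPKM) and Socs2 (2.03 FPKM) were highest.

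The binding proteins differed from each other in how they varied. Igfbp1, a short-lived binding protein that rises in blood when insulin is low (ENSMUSG00000020429, chromosome 11, 7197782 to 7202546, plus strand), had 90.8, 60.8 and 37.2 FPKM in PS-MP replicates 1, 2 and 3, against 243, 91.5 and 191 FPKM in water. All PS-MP values were under all water values, but the margin between PS-MP replicate 1 and water replicate 2 was below 1 FPKM. The means were 62.9 ± 26.9 FPKM in PS-MP and 175 ± 76.9 FPKM in water (SD, n = 3 each). The log2 fold change was -1.45 with a standard error of 0.40, a fold change of 0.366 with an interval of 0.191 to 0.701, unadjusted p = 0.00741 and adjusted p = 0.194 (limma). Igfbp1 therefore did not pass over all genes, and over all alternatives its adjusted p ran from 0.101 to 0.484.

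Igfbp1 also varied widely between libraries of 1 group. Its within-group SD of log2(FPKM + 0.5) was 0.69, larger than that of 99.3% of the genes tested, where the median gene had 0.13. The highest library was 2.44 times the lowest in PS-MP and 2.65 times the lowest in water. The libraries held 846 to 5625 Igfbp1 reads, so counting error adds little. Leaving out PS-MP replicate 3, in which the forebrain markers were highest, gave a log2 fold change of -1.12 (adjusted p = 0.333, limma), and leaving out water replicate 2 gave -1.86.

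Igfbp2, a binding protein abundant in liver and in several other tissues (ENSMUSG00000039323, chromosome 1, 72824503 to 72852474, plus strand), had 266, 269 and 161 FPKM in PS-MP, against 234, 209.6 and 256 FPKM in water. PS-MP replicates 1 and 2 were above every water library and PS-MP replicate 3 was below every one. The fitted fold change was 0.974 (interval 0.715 to 1.33, adjusted p = 0.953, limma). Without PS-MP replicate 3 the log2 fold change was 0.20 with an adjusted p of 0.467. That library also held the forebrain transcripts given above, and their part in its Igfbp2 level was not tested.

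Igfbp4, a binding protein that restrains IGF action until it is cleaved (ENSMUSG00000017493, chromosome 11, 99041244 to 99054392, plus strand), was the most evenly expressed of the 3 binding proteins. It had 260.0, 285 and 296 FPKM in PS-MP, against 244, 265 and 237 FPKM in water. A single crossing, of PS-MP replicate 1 below water replicate 2, kept the groups from separating. The means were 280.2 ± 18.4 FPKM in PS-MP and 249 ± 14.5 FPKM in water (SD, n = 3 each), a fold change of 1.13 with an interval of 0.991 to 1.28 (adjusted p = 0.419, limma).

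The 3 binding proteins made up the pool in different shares. Igfbp1 was 14.7%, 9.88% and 7.52% of the summed FPKM of Igfbp1, Igfbp2 and Igfbp4 in PS-MP replicates 1, 2 and 3, against 33.7%, 16.2% and 27.9% in water. Every PS-MP share was under every water share. In water replicate 1 the 3 transcripts were nearly equal in level, whereas in PS-MP replicate 3 Igfbp4 alone was 59.8% of the sum. The sum itself was 617, 615 and 495 FPKM in PS-MP and 720.3, 566 and 684 FPKM in water, so it overlapped between the groups. The shares are a description and were not tested.

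Insr, the insulin receptor (ENSMUSG00000005534, chromosome 8, 3122061 to 3279617, minus strand), was, with Igfbp4, among the steadiest members. It had 16, 16.8 and 16.7 FPKM in PS-MP, against 15.4, 14.8 and 17.6 FPKM in water. The PS-MP values lay inside the water range. Its fold change was 1.04 (adjusted p = 0.827, limma), and the interval of 0.913 to 1.18 was among the narrowest of the members. Its log2 fold change of 0.05 was 0.00 without water replicate 2 and 0.12 without water replicate 3.

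The substrates Irs1 and Irs2 were the least abundant members after Socs2. Irs1, which docks PI3-kinase at the receptor (ENSMUSG00000055980, chromosome 1, 82233101 to 82291416, minus strand), had 1.89, 1.88 and 1.31 FPKM in PS-MP, against 2.23, 2.01 and 2.27 FPKM in water. All PS-MP values were under all water values. The log2 fold change was -0.30 (standard error 0.13, unadjusted p = 0.0558, adjusted p = 0.396, limma), a fold change of 0.815 with an interval of 0.660 to 1.01. PS-MP replicate 3 carried much of it: without that library the log2 fold change was -0.16. Of the 9144 exonic bases of Irs1, 2822 are shared with Gm9747 on the opposite strand, which was at 0 reads in every library. The labels do not say how reads in that stretch were assigned, and the Irs1 level is uncertain to that extent.

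Irs2, the substrate that fasting turns on in liver (ENSMUSG00000038894, chromosome 8, 10984681 to 11008458, minus strand), had 2.56, 4.68 and 2.87 FPKM in PS-MP replicates 1, 2 and 3, against 7.75, 2.56 and 6.20 FPKM in water. Water replicates 1 and 3 were the highest libraries, and water replicate 2 was level with the lowest PS-MP library. The means were 3.37 ± 1.15 FPKM in PS-MP and 5.50 ± 2.66 FPKM in water (SD, n = 3 each), a log2 fold change of -0.55 with a standard error of 0.36 (adjusted p = 0.560, limma). Water replicate 2 decides the size: without it the log2 fold change was -0.98 and the adjusted p 0.190, and without water replicate 1 it was -0.26. The ratio of Irs1 to Irs2 in FPKM was 0.737, 0.401 and 0.457 in PS-MP and 0.288, 0.787 and 0.367 in water, so Irs2 was the more abundant substrate in all 6 libraries and the ratio overlapped between the groups.

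**Figure D2:**
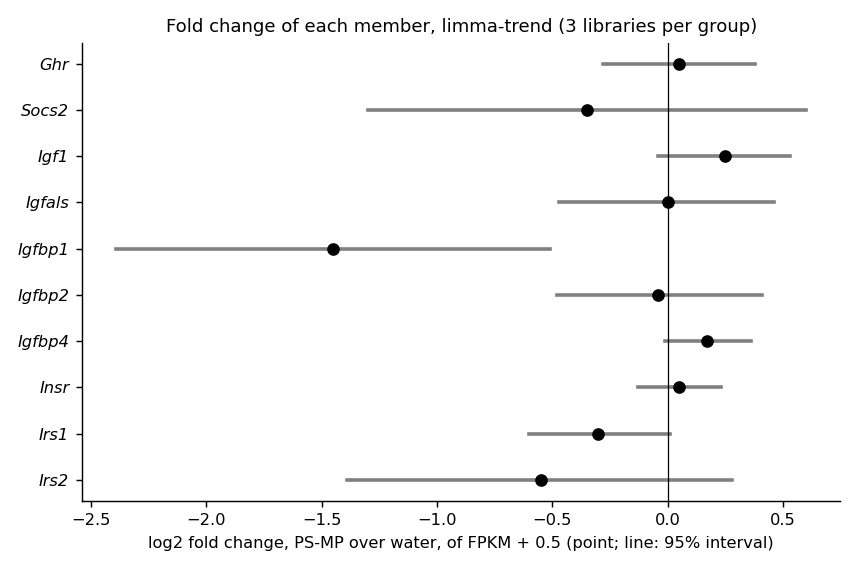
Fitted log2 fold change of each member, PS-MP over water, of FPKM + 0.5 (horizontal axis; points) with its 95% interval (lines), from limma-trend with 3 libraries per group. The interval of Igfbp1, -2.39 to -0.51, is the one that leaves out 0, although its adjusted p is 0.194; Socs2, Igfbp1 and Irs2 have the widest intervals.

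Igfbp1 and Irs2 shared the water libraries in which they were high, but not their order within PS-MP. PS-MP replicate 1 was the highest of its group for Igfbp1 (90.8 FPKM) and the lowest for Irs2 (2.56 FPKM). PS-MP replicate 2 was the highest of its group for Irs2 (4.68 FPKM). Water replicates 1 and 3 were the highest of the 6 for both genes, and both were lower in water replicate 2. Pdk4, a kinase that blocks glucose oxidation in fasting and is also a FOXO1 target (chosen after its values were seen), had the same libraries on top, with 4.14, 6.99 and 2.63 FPKM in PS-MP against 15.6, 4.79 and 13.3 FPKM in water (log2 fold change -1.14, adjusted p = 0.337, limma). Other listed FOXO targets differed in this (G6pc and Trib1 were chosen after their values were seen). G6pc was also highest in water replicates 1 and 3 (286 and 204 FPKM). Ppargc1a (2.14 FPKM) and Trib1 (5.33 FPKM) were instead at their lowest of the 6 libraries in water replicate 1. Water replicates 1 and 3 also held the adipocyte transcripts given above, as did PS-MP replicate 3, which was the lowest library for Igfbp1. The part of feeding or of adipocyte RNA in these values was not tested.

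Levels per kilobase put the members in a clear order within liver. Averaged over the 6 libraries, Igfbp4 (264 FPKM) and Igfbp2 (233 FPKM) came first, and their values overlapped within both groups. Igfbp1 (119 FPKM) followed. It was separate from Igfbp2 in PS-MP but not in water, and separate from Igf1 (63.2 FPKM) in water but not in PS-MP. Below Igf1, each neighbour was separate from the next in both groups: Ghr (36.3 FPKM), Insr (16.2 FPKM), Igfals (10.7 FPKM), Irs2 (4.44 FPKM) and Irs1 (1.93 FPKM). Irs1 and Socs2 (1.08 FPKM) overlapped in both groups. The position of Igfbp1 is therefore the place where the order differs between PS-MP and water.

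Of the 10 members, 8 varied within groups by more than the median gene tested (0.13 in log2). Igfbp4 and Insr were the exceptions, at 0.09 each. Socs2 and Igfbp1 had 0.69 each and Irs2 had 0.61, against 0.33 for Igfals, 0.31 for Igfbp2, 0.23 for Ghr, 0.19 for Igf1 and 0.17 for Irs1. Socs2, Igfbp1 and Irs2 were thus the members whose group differences had the least precision.

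No other gene of the IGF system passed the test. Of 11 listed, 6 were tested, 0 changed and the median log2 fold change was 0.04; 0 had an unadjusted p under 0.05, and limma-voom called 0. Igf2, Pappa and Pappa2 are named after their values were seen. Igf2, the fetal ligand, had at most 1 read in any library, and the IGFBP proteases Pappa and Pappa2 had at most 6 and 1 reads. Igf1r, the IGF1 receptor, had 0.410, 0.273 and 0.443 FPKM in PS-MP, against 0.275, 0.225 and 0.381 FPKM in water (log2 fold change 0.14, adjusted p = 0.674, limma; 0.08 to 0.23 with PS-MP replicate 2 or 3 or water replicate 2 or 3 left out). Its level was far under that of Insr in every library. Igfbp7, which binds IGF only weakly and shares 85 exonic bases with Polr2b, had a log2 fold change of -0.10 and Igfbp5 one of 0.37 (adjusted p = 0.746 and 0.735, limma). The Igfbp5 value was -0.11 without water replicate 2, 0.16 without PS-MP replicate 3 and 0.71 without water replicate 3, so it has no stable direction, and that of Igfbp7 was -0.01 without water replicate 3.

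GH signalling genes outside the members gave 0 changed of 14 tested with limma-trend, with a median log2 fold change of -0.07 and an unadjusted p under 0.05 for 5. Bcl6, a repressor of STAT5 targets that GH itself turns down, had 4.0, 1.40 and 2.0 FPKM in PS-MP replicates 1, 2 and 3, against 5.31, 9.35 and 6.55 FPKM in water. Every PS-MP library was below every water library, and PS-MP replicate 1 was the closest to water. Its log2 fold change was -1.41 (standard error 0.32, adjusted p = 0.124, limma-trend); limma-voom called it, with an adjusted p of 0.0457, and limma-trend called it without PS-MP replicate 1 (0.0486). Stat5b, which carries the GH signal to the nucleus, had 10.6, 8.89 and 8.57 FPKM in PS-MP, against 14.1, 11.9 and 12.0 FPKM in water (log2 fold change -0.42, adjusted p = 0.150, limma).

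Socs3 and Cish, feedback inhibitors of the same family as Socs2, had positive fold changes that did not pass the test, whereas that of Socs2 was negative. Socs1, named after its values were seen, had at most 4 reads and was not tested. Socs3, which limits cytokine and GH receptors, had 2.54, 4.90 and 2.88 FPKM in PS-MP, against 1.78, 1.20 and 1.81 FPKM in water (log2 fold change 0.88, standard error 0.23, adjusted p = 0.168, limma). Its groups did not overlap. Cish, a direct and fast STAT5 target chosen after its values were seen, had 0.441, 2.70 and 1.15 FPKM in PS-MP, against 0.544, 0.248 and 0.408 FPKM in water (log2 fold change 0.94, adjusted p = 0.367, limma). PS-MP replicates 2 and 3 were above all water libraries and PS-MP replicate 1 was not. Without PS-MP replicate 2 the log2 fold change was 0.48 for Cish and 0.62 for Socs3. Without PS-MP replicate 1 it was 1.36 for Cish and 1.04 for Socs3. PS-MP replicate 2 had the highest Cish and Socs3 and the lowest Bcl6 of the 6 libraries and the highest Socs2 of its group, whereas Socs2 was highest of all in water replicate 3, where Cish was at 0.408 FPKM. Jak2, the kinase on the GH receptor, had a log2 fold change of 0.13 (chosen after its values were seen; adjusted p = 0.700, limma).

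**Figure D3:**
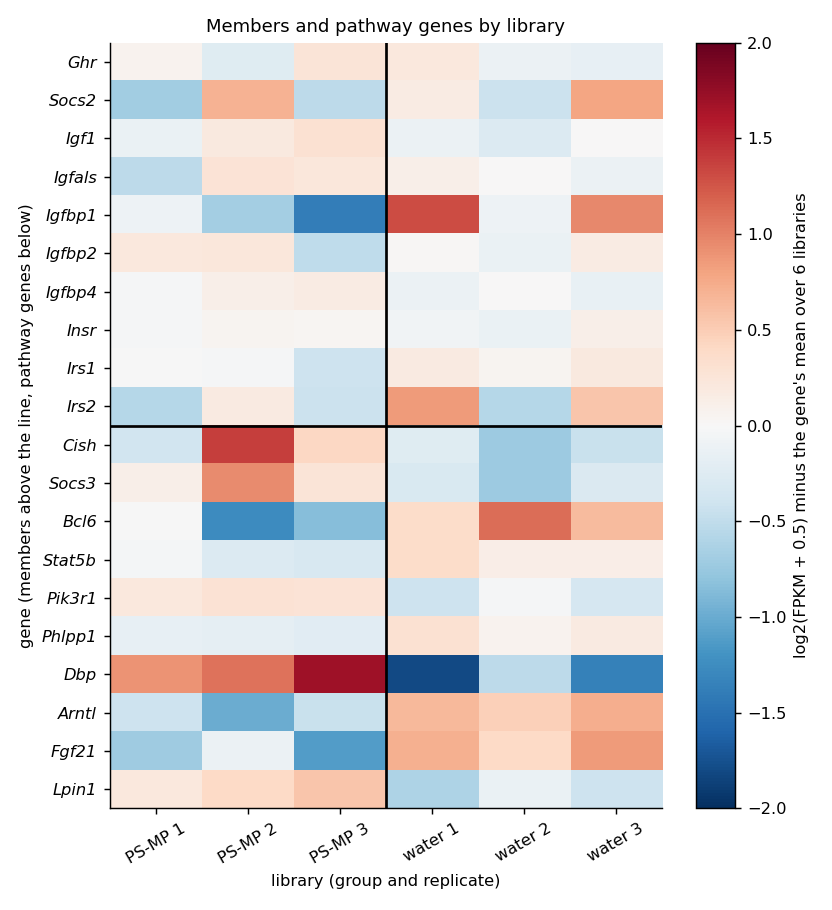
Log2(FPKM + 0.5) minus the gene's own mean over the 6 libraries (colour; red above and blue below the mean), for members above the black line and pathway genes below it, with PS-MP libraries left of water libraries. Igfbp1 and Irs2 are highest in water replicates 1 and 3, while Cish and Socs3 are highest, and Bcl6 lowest, in PS-MP replicate 2.

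Sex-biased genes, which depend on the pattern of GH pulses, were read next. Of 14 tested male-biased genes 0 changed with limma-trend or limma-voom, with a median log2 fold change of 0.02 and an unadjusted p under 0.05 for 2. Elovl3, an elongase of very long fatty acids, had 88.1, 63.1 and 70.2 FPKM in PS-MP against 163, 132 and 99.1 FPKM in water (log2 fold change -0.81, adjusted p = 0.131, limma). Nudt7, a peroxisomal coenzyme A hydrolase, had a log2 fold change of 0.50 and Mup20, a urinary pheromone carrier from a family of near-identical copies, 0.32 (adjusted p = 0.274 and 0.438). Of 14 female-biased genes 5 were tested and 1 changed. The 5 had a median log2 fold change of -0.44, with 2 positive and 3 negative. The 1 that changed, Cyp2a4, was higher in PS-MP (log2 fold change 1.02, adjusted p = 0.0386, limma). It had 1.28, 1.55 and 1.62 FPKM in PS-MP against 0.530, 0.611 and 0.317 FPKM in water, and only 8 to 43 reads a library. Limma-voom did not call it (adjusted p = 0.0516), nor did limma-trend with any 1 library left out (0.0551 to 0.154), and reads could be split between it and its near-identical neighbour Cyp2a5. The other 4 had no call, among them Acot3 at -0.90 (-0.37 without PS-MP replicate 3) and Cyp17a1 at -0.44. Acot3 shares 312 exonic bases with an antisense RNA. Cyp17a1 was at -0.75 without water replicate 1, but at -0.29 without water replicate 2 and -0.26 without water replicate 3.

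Insulin signalling genes outside the members had no call with limma-trend, while limma-voom called Pik3r1. Of 34 tested, 0 changed with limma-trend, the median log2 fold change was -0.03 and 5 had an unadjusted p under 0.05. Pik3r1, the regulatory subunit of PI3-kinase that IRS proteins recruit, had 9.59, 10.1 and 9.99 FPKM in PS-MP, against 6.01, 8.05 and 6.39 FPKM in water. Its groups did not overlap, and its log2 fold change was 0.51 (standard error 0.11, adjusted p = 0.110, limma-trend; 0.0472 with limma-voom). Phlpp1, a phosphatase that switches off AKT, had 3.80, 3.74 and 3.59 FPKM in PS-MP, against 5.47, 4.57 and 4.97 FPKM in water (log2 fold change -0.38, adjusted p = 0.134, limma). Grb14, an adaptor that inhibits the insulin receptor, had a log2 fold change of -0.23 (adjusted p = 0.236, limma).

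FOXO factors and targets had a median log2 fold change of 0.04, with 0 of 18 changed and 6 at an unadjusted p under 0.05; limma-voom called 1, Bcl6. Gadd45a (0.71, adjusted p = 0.0925, limma) and Ppargc1a, the coactivator of fasting metabolism (0.79, adjusted p = 0.184), were positive, while Bcl6 and Pdk4 were negative as given above. Gadd45a had only 6 to 23 reads a library, and its adjusted p was 0.136 with limma-voom. It shares 337 exonic bases with an antisense RNA that had 11 to 36 reads. Genes that insulin turns up had a median of 0.12, with 0 of 14 changed and 3 at an unadjusted p under 0.05; limma-voom called 1, Lpin1. Lpin1, a phosphatidate phosphatase, had 48.2, 55.0 and 61.6 FPKM in PS-MP against 26.9, 38.1 and 31.2 FPKM in water (log2 fold change 0.77, adjusted p = 0.0772, limma). Thrsp, a lipogenic protein (1.41, adjusted p = 0.198), and Srebf1, the lipogenic factor that insulin induces (0.55, adjusted p = 0.229), had the same sign. Srebf1 shares 109 exonic bases with Rai1.

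Clock genes changed between the same groups and are given, with the fasting genes, beside these values. Of the 12 PER-phase clock genes tested, 4 rose and 0 fell, with a median log2 fold change of 0.76, and of the 6 BMAL1-phase genes 0 rose and 1 fell. Those that rose were Per3 (log2 fold change 1.65, adjusted p = 0.0243), Nr1d2 (0.76, adjusted p = 0.0243), Dbp (2.45, adjusted p = 0.0366) and Tef (1.04, adjusted p = 0.0386), and Arntl, which encodes the clock activator BMAL1, fell by 1.23 on the log2 scale (adjusted p = 0.0386, limma). Npas2 (-0.99) and Nfil3 (-0.92) did not pass with limma-trend (adjusted p = 0.0625 and 0.0909), whereas limma-voom called both (0.0489 and 0.0388), as well as Ciart and Usp2 of the PER-phase list, which are named after their values were seen. Dbp, an output factor of the clock, had 9.6, 11.1 and 17.1 FPKM in PS-MP, against 1.06, 3.29 and 1.63 FPKM in water. It shares 539 of its 2993 exonic bases with Sphk2 on the opposite strand (602 to 919 reads), and the labels give no counting strand, so its level is uncertain to that extent. These 5 and Cyp2a4 were the 6 pathway genes changed in all. With 1 library left out, the count of pathway genes changed was 3 (Bcl6, Nr1d2 and Per3), 0 and 1 (Per3) without PS-MP replicate 1, 2 or 3. It was 0, 5 (Ciart, Dbp, Nr1d2, Per3 and Usp2) and 0 without water replicate 1, 2 or 3. Bcl6, Ciart and Usp2 are not among the 6, so these counts are not of the same genes. Fasting-responsive genes had a median of -0.26, with 0 of 15 changed and 8 at an unadjusted p under 0.05 (limma-trend). Of the 15, 6 had a positive and 9 a negative log2 fold change. Plin2 (-0.73), Fgf21 (-1.30) and Angptl4 (-0.41) had the smallest p, and Ppargc1a, next by p, was at 0.79. Limma-voom called 2, Plin2 and Fgf21. The part of collection hour or feeding in the levels of Igfbp1, Irs2, Bcl6 or Pik3r1 was not tested.

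**Figure D4:**
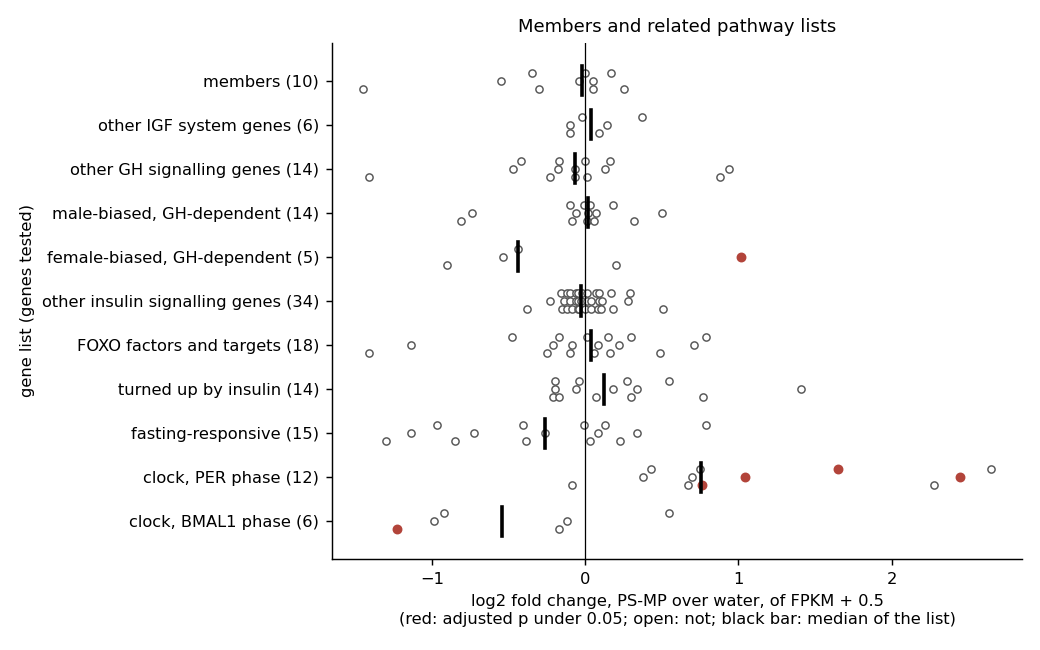
Fitted log2 fold change, PS-MP over water, of FPKM + 0.5 for every tested gene of the members and of each related list (horizontal axis; red points have an adjusted p under 0.05, open points do not, black bars are medians). The medians of the members (-0.02), of the GH signalling list (-0.07) and of the insulin signalling list (-0.03) lie near 0, that of the PER-phase clock list lies at 0.76.

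The genes whose pattern over the 6 libraries was most like that of a member were taken as those with the smallest root mean square distance between log2(FPKM + 0.5) values centred on each gene's mean, out of all tested genes other than predicted models. For Igf1, whose own values had a root mean square size of 0.198, they were Plk2 (distance 0.0474), Mtnr1a (0.0584) and Slc35f1 (0.0591). Slc35f1 was at 0.0464 to 0.271 FPKM, under the pseudocount of 0.5 in every library, so its pattern is compressed and its likeness to Igf1 rests on that. For Igfbp1, with a size of 0.916, they included Pitx3 (0.371) and Myl9 (0.372). Pitx3 was at 0.351 to 3.71 FPKM and Myl9 at 0.115 to 1.36 FPKM. Both fell under the pseudocount in PS-MP replicate 3, so their patterns are compressed as well. Pitx3 overlaps Elovl3 on the other strand by 10 exonic bases. For Irs2, with a size of 0.566, they were Keg1 (0.276), Fam209 (0.284) and Hsbp1l1 (0.286). Fam209 (0.480 to 1.98 FPKM) and Hsbp1l1 (0.643 to 1.42 FPKM) were also near the pseudocount. With 6 libraries and 13299 genes, such neighbours are a description of these libraries.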

How the data were processed

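Liver RNA of 6 libraries was sequenced, 3 from PS-MP mice and 3 from water mice, grouped by the treatment given in the labels. For every gene and library the authors deposited an FPKM. The tools, as the submitters' processing notes list them, were CASAVA, FastQC, MultiQC, Trimmomatic 0.38, HISAT2 2.1.0, featureCounts 1.6.0 and DESeq2 1.22.1; those notes give a human build, GRCh38, but all 55536 identifiers are those of mouse GENCODE M21 on GRCm38. Strand and multi-gene counting settings are not given in the sources used here. FPKM times merged exon length gave whole reads within 0.001 for 100.0% of genes above 0 in each library, and these reads gave depth and the low-count rule.

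A gene was tested where 3 libraries reached 0.66 CPM, which is 10 reads at the median depth, and all libraries together 15 reads. The test was limma-trend (limma 3.58.1, R 4.3.3) on log2(FPKM + 0.5), in a model of group alone; the procedure was tested on simulated data. The members, gene lists and tests were chosen with earlier results of these data known. Named pathway genes are those changed and up to 3 with the smallest p in each list; others were chosen after their values were seen, which the text says. The genes most like Igf1, Igfbp1 and Irs2 over the libraries are the nearest 3 to each, of which 1 is not reported here. The alternatives were pseudocounts, low-count rules, scalings, limma-voom, a replicate block and leaving out each library.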

Additional observations from a re-analysis of the deposited data

How the results depend on the processing

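The number of members changed was 0 with limma-trend and under all 14 alternatives, and Igf1, Igfbp1, Igfbp4, Irs1, Irs2 and Socs2 kept the sign of their fold change in each, while Insr was at 0.00 without water replicate 2. Leaving out a library in turn gave log2 fold changes of -0.14 to 0.25 for Igfals, -0.16 to 0.20 for Igfbp2 and -0.06 to 0.19 for Ghr, each crossing 0, and of -1.86 to -1.12 for Igfbp1, -0.98 to -0.26 for Irs2, -0.78 to -0.04 for Socs2 and 0.16 to 0.38 for Igf1. With limma-voom Igfals was at 0.01; values of Igfals this close to 0 have no direction. Of the distinct genes in the pathway lists, 6 changed with limma-trend, 14 with limma-voom, 3 with the replicate block (Arntl, Nfil3 and Per3), 0 with no low-count rule and 0 to 5 with a library left out; for all genes these counts were 65, 133, 23, 0 and 0 to 36. With no low-count rule, 26854 genes were tested and 2064 had an unadjusted p under 0.05. Same-numbered PS-MP and water libraries had correlations of -0.036, 0.047 and -0.01 between their deviations from the group means. Correlations from so few libraries cannot decide whether the replicate numbers pair them. With the replicate block Igfbp1 had a log2 fold change of -1.45 (adjusted p = 0.174, limma). With 3 libraries per group, the spread of Igfbp1, Irs2 and Socs2 and not their read depth sets the width of their intervals.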
